A study of Camellia japonica and Camellia azalea with 81 samples.

Results

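The 150 gene IDs described here were the leaf genes of Camellia azalea whose level differed most among libraries of the same month. They were chosen from 41982 IDs by their measured spread. Levels were taken as log2(TPM + 1), where TPM give each ID's share of the transcripts in a library, and the libraries Jan 1 and Dec 3 were left out of the choice. An ID qualified with a median of at least 5 TPM over the other 34 libraries, which 15290 IDs reached, and with a within-month SD pooled over the 12 months that exceeded the SD of its 12 month means, which left 6871 IDs. The 150 with the largest within-month SD were taken. Another 37 IDs were at least as variable within months as the last of them but had month means that spread more.

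The study profiled young leaves of 2 camellias through a year. C. azalea leaves, which chose the members, make up 36 libraries, 3 for every one of 12 months. C. japonica gave 9 flower bud libraries, 3 each for FB-1, FB-2 and FB-3 (labels whose stage is not stated), and 36 young leaf libraries, 3 in each month. No genotype, plant age, time of day or treatment is given in the labels for any group, and separate plants are not recorded for the 3 libraries of a month. The p-values therefore reflect only how far these libraries differ, and part of that may be technical. All members also occur in the C. japonica table, which was normalized on its own, so no level is compared across the species.

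Both species are evergreen shrubs of the tea family. C. japonica is known for flowering from winter to spring, and C. azalea for flowering repeatedly through the year. Where a gene is set by season alone, libraries of one month lie close together; the members were picked for the opposite. In bulk tissue, fewer cells of a type and less RNA per cell cannot be told apart. The files do not pair the IDs with gene names, so no function is given for any member.

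TPM carry no sequencing depth: it is unknown for all libraries, and intervals from counting cannot be given. The number of IDs at 1 TPM or more was 20063 to 25075 in the 34 C. azalea libraries of the rule, 23597 to 27805 in the C. japonica buds and 22498 to 27370 in the C. japonica leaves. By its highest correlation over IDs, the best match of a library carried its own label for 29 of 36 C. azalea leaf libraries, 5 of 9 C. japonica bud libraries and 6 of 36 C. japonica leaf libraries. Most C. japonica libraries thus matched another label best, often a neighbouring month. Among them 3 are called doubtful here. The library labelled Feb leaf 1 was most like a bud, FB-1 bud 2 (r = 0.935), and averaged r = 0.761 against the other Feb leaves; the library labelled FB-1 bud 1 was most like a leaf, Dec leaf 2 (r = 0.981), and averaged 0.748 against the other FB-1 buds. The library labelled Jan leaf 3 was most like Aug leaf 2 (r = 0.956) and averaged 0.899 against the other Jan leaves, the lowest of the leaf libraries outside Feb. Counts of members called in C. japonica are given with and without these libraries. Medians and divisions of the blocks in the tested comparisons are given with all libraries only.

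The values that chose the members are a description and were not tested. The within-month SD of the members was 1.07 to 3.30 on the log2(TPM + 1) scale with a median of 1.36, beside a median of 0.43 over all 15290 IDs at 5 TPM or more. The SD of their month means was 0.46 to 2.03 with a median of 1.04, beside 0.45 over all those IDs. The members' median level was 35.8 TPM, against 17.6 TPM over all those IDs, with a range of 5.05 to 14797 TPM. At the limit, the last members inside were EVM0011867 (within-month SD 1.0689, 1.05 to 24.2 TPM) and EVM0036168 (1.0663, 0 to 16.9 TPM). The first IDs outside were EVM0033850 (1.0650, 0.90 to 39.3 TPM) and EVM0024627 (1.0645, 0.699 to 35.5 TPM), so the limit of 150 separates values that are nearly equal.

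The members did not vary independently of each other. Each library's deviation from its month mean was computed per member, and members were grouped by average linkage on 1 minus Pearson's r, with the tree divided at a height of 0.5. A larger block of 89 IDs deviated together, with a mean pairwise r of 0.856 over the 34 libraries. A smaller block held 11 IDs with a mean pairwise r of 0.689. The other 50 members had a mean pairwise r of 0.049; among them were 7 groups of 2 to 9 IDs and 24 IDs that joined none. The blocks were formed on these values, so their correlations are a description.

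**Figure D1:**
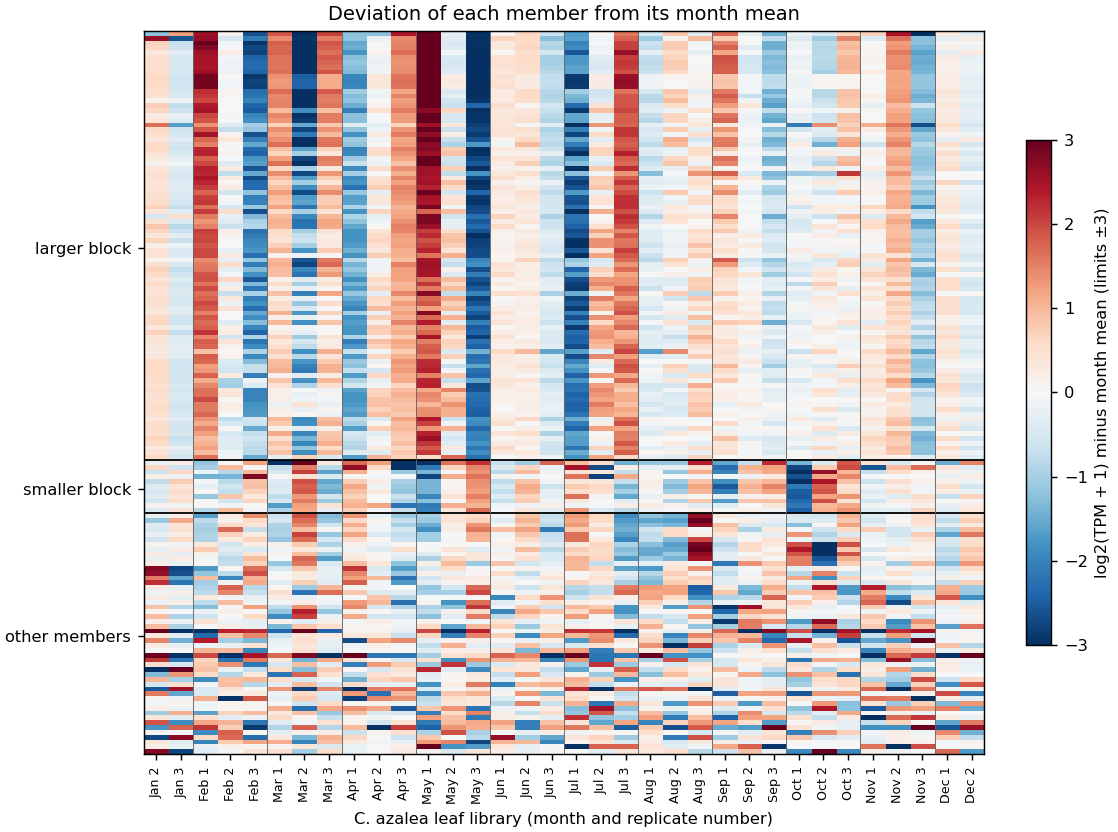
Deviation of each of the 150 members (rows) from its month mean in the 34 C. azalea libraries of the rule (columns), on the log2(TPM + 1) scale with colours limited at 3 in either direction. The 89 IDs of the larger block turn red together in Feb 1, May 1 and Jul 3 and blue together in Feb 3, May 3 and Jul 1, while the 50 other members have a mean pairwise r of 0.049.

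The libraries of 3 months, May, Jul and Feb, carried most of this spread. The mean deviation of the larger block was 2.44 in May 1, 1.88 in Feb 1 and 1.72 in Jul 3, and all 89 IDs were above their month mean in each of these libraries. It was -2.60 in May 3, -2.19 in Jul 1 and -1.79 in Feb 3, and 0 of the 89 IDs were above their month mean in any of these. Some of these libraries were most like a library of another month. By correlation over IDs, May 1 and Jul 3 matched each other best (r = 0.970). Feb 3 and Mar 2 also matched each other best (r = 0.978), and Feb 1 matched Mar 1 (r = 0.977). May 3 and Jul 1 matched their own months. Whether the month labels of these libraries hold was not tested. May held 29.1% of the within-month sum of squares of the larger block, Jul 20.3% and Feb 15.5%, against 0.643% in Dec and 1.32% in Oct. The largest single deviation of a member fell in May 1 for 65 of the 150 members and the lowest in May 3 for 41. Without May 1 the rule returned 104 of the 150 members, the lowest share found when single libraries were left out, and 46 of the 89 IDs of the larger block.

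The larger block took a wide range of the transcript pool. Its summed TPM made up 0.263% of library May 3, 1.95% of May 2 and 22.2% of May 1, which is an 84.7-fold range among libraries of one month. In Feb the summed share was 6.08%, 1.10% and 0.228% in libraries 1, 2 and 3, and in Jul it was 1.19%, 4.53% and 18.8%. In Mar it was 19.5%, 0.982% and 21.1%, so library 2 was the low one there. The median over the 34 libraries was 6.29%, and May, Jul and Mar each held libraries on both sides of it, while all 3 Feb libraries lay below it.

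Aug, Jun and Oct were more even, as were Jan and Dec as long as their left-out libraries are set aside. In Jun the block made up 16.1%, 17.5% and 7.26% of libraries 1, 2 and 3, in Aug 9.78%, 21.6% and 14.9%, and in Dec 17.2% and 12.9% of libraries 1 and 2. In Jan it made up 1.84% and 0.891% of libraries 2 and 3. Within a month the highest library exceeded the lowest by 1.33-fold in Dec and 2.07-fold in Jan, where 2 libraries each were used, by 2.21-fold in Aug, 2.41-fold in Jun and 2.58-fold in Oct, with a median of 6.21-fold over the 12 months. With Dec 3 (43.8%) and Jan 1 (3.17%) the ranges were 3.39-fold in Dec and 3.55-fold in Jan, and Aug was the most even month. The highest share among the 34 libraries was 37.4% in Sep 1.

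**Figure D2:**
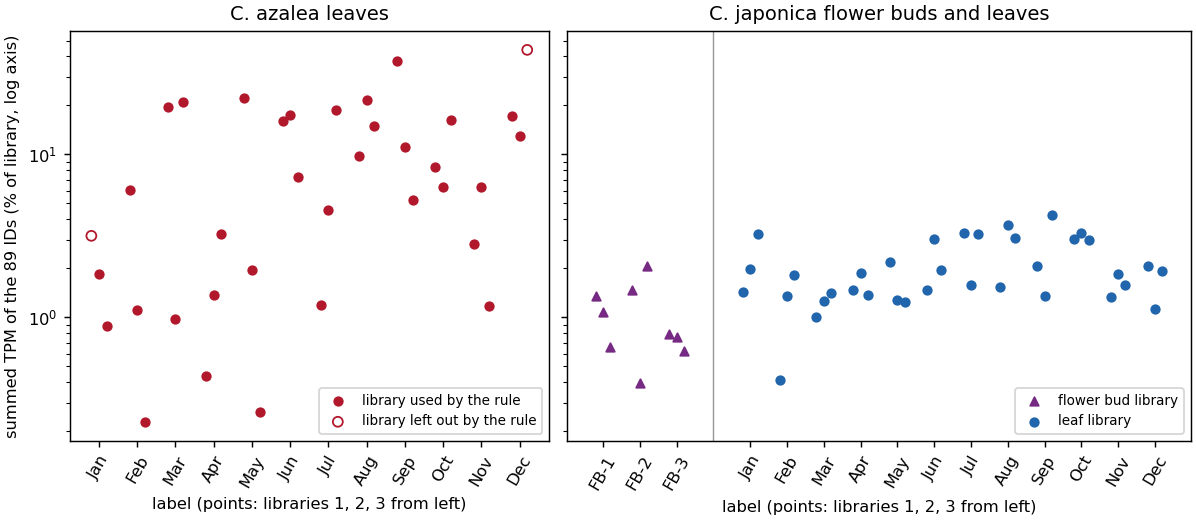
Summed TPM of the 89 IDs of the larger block as a percentage of each library, on a log axis, by label, for C. azalea leaves (left, open points for Jan 1 and Dec 3) and for C. japonica flower buds and leaves (right). C. azalea libraries of one month lie up to 84.7-fold apart, and most C. japonica buds lie below most C. japonica leaves.

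The central ID of the larger block, EVM0007580, had the highest mean r with the rest of the block (0.918). Its level was 6.41 to 1051 TPM over the 34 libraries, with a median of 454. It had 760, 185 and 11 TPM in May libraries 1, 2 and 3, 235, 41 and 6.41 TPM in Feb, and 16.7, 244 and 526 TPM in Jul. In the even months it had 879, 892 and 444 TPM in Jun, 558, 506 and 612 TPM in Oct, and 1051 and 748 TPM in Dec libraries 1 and 2. Its low libraries were those in which the whole block was low, which follows from choosing it by its r with the block.

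The most abundant member was EVM0010849, also of the larger block and named here after its values were seen. It had 65965, 3365 and 453 TPM in May libraries 1, 2 and 3, and 114627, 20847 and 12128 TPM in Sep. Its median over the 34 libraries was 14797 TPM, and its order in May was that of the block as a whole.

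The larger block also had uneven month means, given as a description only, because the rule used the month means. Its mean log2(TPM + 1) was 4.99 in Jan, 4.89 in Feb and 5.03 in Apr, and 7.71 in Jun, 7.74 in Aug and 7.92 in Dec. Months of one season lay apart, Dec from Jan and Feb in winter, and Mar (6.84) from Apr in spring. The within-month SD of the block's IDs had a median of 1.40, so a part of season in these means cannot be told from the spread among libraries. Dec held the highest month mean for 50 of the 89 IDs and Aug for 24, while Feb held the lowest for 42 and Apr for 34. Of these, Jun and Aug were also among the months with the narrowest range of the summed share, with or without the left-out libraries.

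The smaller block ran mostly opposite to the larger one, as did the typical ID in the deposited TPM. Its mean deviation was -2.52 in Oct 1, -1.96 in May 1, -1.37 in Apr 3 and -1.35 in Sep 1, and it was 1.67 in Mar 2, 1.46 in May 3 and 1.40 in Oct 2. Across the 34 libraries the mean deviation of the smaller block and that of the larger one had a Pearson r of -0.662 and a Spearman rho of -0.654, given as a description over libraries that share their month means. Single IDs among the other 15140 at 5 TPM or more had a median r of -0.630 with the larger block. After each library was rescaled by the median of ratios, which holds the typical ID level, that median was 0.116. The r between the blocks was not computed after rescaling. The smaller block was scarce, at 0.00213% of TPM in Oct 1 to 0.518% in Apr 1, and in Oct 1 and Oct 2, where it was lowest and high, the mean deviation of the larger block was -0.18 and -0.13. Its central ID, EVM0023325, had a median of 15.9 TPM and a range of 0.285 to 71.5 TPM. It had 0.285, 23.5 and 7.67 TPM in Oct libraries 1, 2 and 3, 11.9, 30.1 and 71.3 TPM in May, and 11.1, 49.8 and 7.22 TPM in Mar.

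The members outside both blocks held the largest single spreads, and these came from values listed at exactly 0 beside high ones. EVM0039667, with the largest within-month SD of all members (3.30), was listed at 0 in 9 of the 34 libraries and at 53.9 TPM or more in each of the others. It had 0, 141 and 0 TPM in Mar libraries 1, 2 and 3, 0, 114 and 110 TPM in Feb, 76.9, 0 and 98.6 TPM in May, and 121, 120 and 92.5 TPM in Apr. EVM0006410, the next by within-month SD (3.11), was listed at 0 in 15 of the 34 libraries and at 23.7 TPM or more in each of the others. It had 84.6, 0 and 119 TPM in Feb and 74.1, 157 and 0 TPM in Mar. Both IDs were at 0 in 5 libraries, Jan 3, Mar 3, Jul 3, Sep 2 and Nov 1, out of the 9 at 0 for EVM0039667 and the 15 at 0 for EVM0006410. Neither ID was in the larger or the smaller block.

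**Figure D3:**
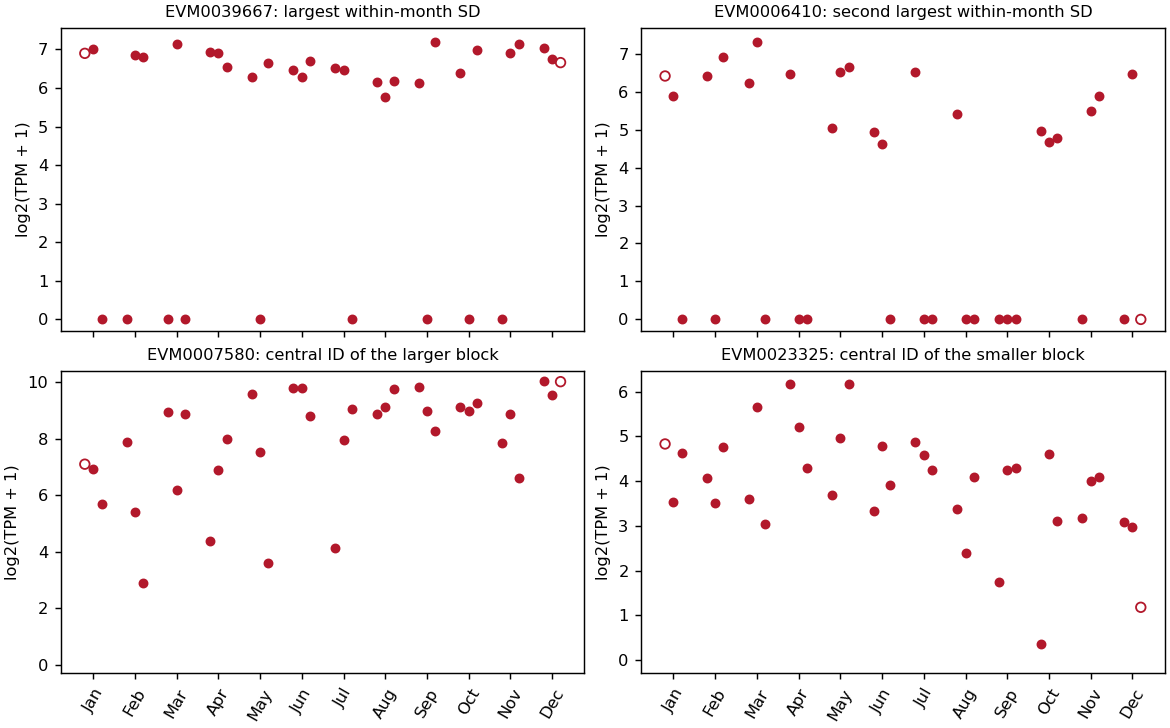
Levels of 4 members in each C. azalea library as log2(TPM + 1), by month, with libraries 1, 2 and 3 from left to right and open points for Jan 1 and Dec 3. EVM0039667 and EVM0006410 are either at 0 or high, EVM0007580 spreads most in Feb, May and Jul, and EVM0023325 is lowest in Oct 1.

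Zeros were common among the members. Of the 150 members, 30 (20%) were listed at 0 in at least 1 of the 34 libraries, against 159 (1.05%) of the other 15140 IDs at 5 TPM or more. Of these 30 members, 22 were outside both blocks, 5 in the larger block and 3 in the smaller one. A pattern of either 0 or at least 5 TPM in every library was found in 4 members and in 6 (0.0396%) of the other IDs. Since a within-month SD grows with such zeros, the rule favours these IDs, and an exact 0 in a TPM file can also be a failed estimate. No member with a median of at least 100 TPM (42 members) was listed at 0 in any of these libraries, against 1 of 1321 other IDs.

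The level of the larger block moved against the number of IDs detected. In May 1, where the block was highest against its month, the number of IDs at 1 TPM or more differed from the month mean by -2552, and in Jul 3 by -2181. In May 3 and Jul 1, where the block was lowest, the number exceeded the month mean by 1593 and 1658. Over the 34 libraries the mean deviation of the block and the deviation of the number of IDs had a Pearson r of -0.833 and a Spearman rho of -0.735, and without May 1 and Mar 2, the libraries farthest from the median number of IDs, r was -0.784. TPM are shares of a fixed total, so both quantities share that total. With the block rescaled by the median of ratios (a factor that holds the typical ID level), r was -0.886. The number of IDs was still counted in the deposited TPM there, so this r does not remove the shared total. The mean deviation of the members outside both blocks had an r of 0.817 with the same number. The median deviation of the other IDs at 5 TPM or more had an r of -0.838 with the larger block, so the typical ID also ran against it. The r of that median with the number of IDs was not computed. The part of detection in the block's spread was not tested.

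The number of other IDs that followed the larger block depended on the scaling. Of the other 15140 IDs at 5 TPM or more, 39 (0.258%) had an r of 0.8 or above with the block's mean deviation in the deposited TPM and 1945 (12.8%) had an r of -0.8 or below. With the median-of-ratios factors the counts were 409 (2.70%) and 78 (0.515%). The block itself kept its mean pairwise r, at 0.902 with the factors and 0.856 without, and all 89 IDs were among the 91 of the largest block then formed. Over all 15290 IDs the mean pairwise r was 0.375 in the deposited TPM and 0.0154 with the factors.

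**Figure D4:**
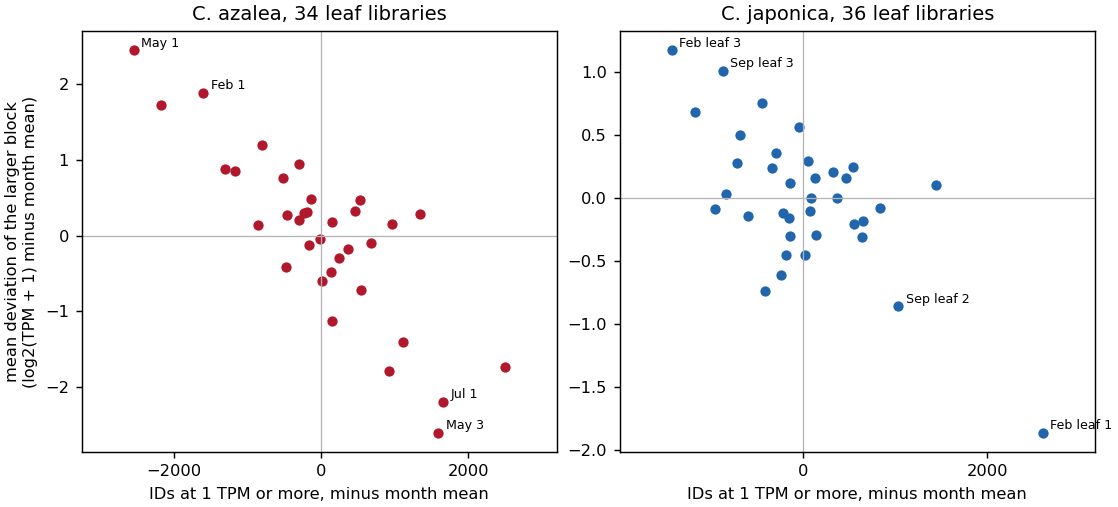
Mean deviation of the larger block from its month mean (vertical axis, log2 scale) against the number of IDs at 1 TPM or more minus the month mean (horizontal axis), for 34 C. azalea libraries (left) and 36 C. japonica leaf libraries (right). Libraries with fewer IDs have a higher block in C. azalea (r = -0.833), and in C. japonica the library labelled Feb leaf 1 lies far from the others.

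The 2 C. azalea libraries that the rule left out hold values it did not use. They are set here against libraries of their month that it did use, so the differences are not free of the choice. Against the mean of the other libraries of its month, Jan 1 was higher for 81 of the 89 IDs of the larger block, with a median difference of 0.75 on the log2 scale, and for 120 of 150 members, beside 45.2% of all 15290 IDs. Dec 3 was higher for 53 of the 89 IDs (median 0.28), for 0 of the 11 of the smaller block (median -1.37) and for 66 of 150 members (median -0.23), beside 5.48% of all IDs. In Dec 3 the other 15140 IDs had a median of -0.85 and the larger block made up 43.8% of TPM, the highest share in any library, 16.4% being EVM0010849 alone. With the median-of-ratios factors the median of those other IDs was 0.04, that of the members turned to 0.72 and that of the larger block was 1.25, with 88 of 89 IDs higher.

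The same measure in C. japonica leaves was independent of the choice. There, 110 of the 150 members had a median of at least 5 TPM over the 36 leaf libraries: 71 of the larger block, 4 of the smaller and 35 of the others. Medians under 1 TPM were found for 15 members, 5 of them in the smaller block and none in the larger. Of the 110, 101 (91.8%) had a within-month SD larger than the SD of their month means, beside 72.3% of all 16621 IDs at that level. Only 6 of the 36 leaf libraries matched their own label best, and the part of this in the within-month SD was not tested. Their median within-month SD was 0.80 against 0.44 over all IDs, and 35 (31.8%) were among the 1663 IDs with the largest within-month SD. Without the libraries labelled Feb leaf 1 and Jan leaf 3 the count was 95 of 110 against 59.3% of all IDs, with a median SD of 0.60 against 0.38. The excess over all IDs depended on the scaling: with the median-of-ratios factors the count was 90 of 110 (81.8%) beside 80.2% of all IDs, and after quantile normalization 97 (88.2%) beside 81.1%. These are descriptions of one table, with no test.

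The larger block also held together within months in C. japonica. Its 71 IDs had a mean pairwise r of 0.605 over the 36 leaf libraries, with 98.4% of pairs above 0, beside a mean of 0.0445 over all 16621 IDs. Counts of the block's IDs in the C. japonica comparisons are therefore not counts of separate observations. Without the libraries labelled Feb leaf 1 and Jan leaf 3 the means were 0.536 for the block and 0.0482 for all IDs. The 4 IDs of the smaller block had a mean of 0.237 and the 35 other members one of 0.0213. The summed share of the larger block was 0.411% to 4.27% of TPM in C. japonica leaves, with a median of 1.84%, and the highest library of a month exceeded the lowest by 1.10-fold in Oct to 4.46-fold in Feb, where the low library was the one labelled Feb leaf 1. Next was Sep, with a 3.17-fold range. EVM0007580 had 77.7, 45.1 and 278 TPM in Sep libraries 1, 2 and 3, and 68.4, 235 and 74.2 TPM in Jun.

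In C. japonica leaves the relation with the number of IDs depended on the library labelled Feb leaf 1. Over 36 libraries the block's mean deviation had a Pearson r of -0.650 and a Spearman rho of -0.435 with the number of IDs against its month mean. Without Feb leaf 1 and Mar leaf 3, the libraries farthest from the median, r was -0.526 with the month means kept. With month means recomputed, r was -0.305 and rho -0.268 without Feb leaf 1 alone, -0.649 and -0.442 without Jan leaf 3 alone, and -0.303 and -0.271 without both. The smaller block and the larger one had an r of -0.196 there.

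Flower buds were compared with leaves in C. japonica with limma over all IDs. Of the 148 members that passed the filter of 1 TPM in at least 3 libraries, 14 were called higher in buds, beside 24.4% of all 32406 IDs tested, and 53 were called lower, beside 9.9% of them. A call needed a Benjamini-Hochberg adjusted p under 0.05 and a log2 difference of at least 1. In the larger block all 89 IDs were tested, 47 were lower in buds and none was higher, with a median difference of -1.44 beside 0.41 over all IDs. The smaller block went the other way, with 5 of 11 higher and none lower, and of the 48 other members tested 9 were higher and 6 lower. Without the libraries labelled Feb leaf 1 and FB-1 1 the members called were 16 higher (10.9%, beside 29.2% of all IDs) and 55 lower (37.4%, beside 11.2%). With the 3 doubtful libraries out they were 16 and 56, beside 29.2% and 11.3%.

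**Figure D5:**
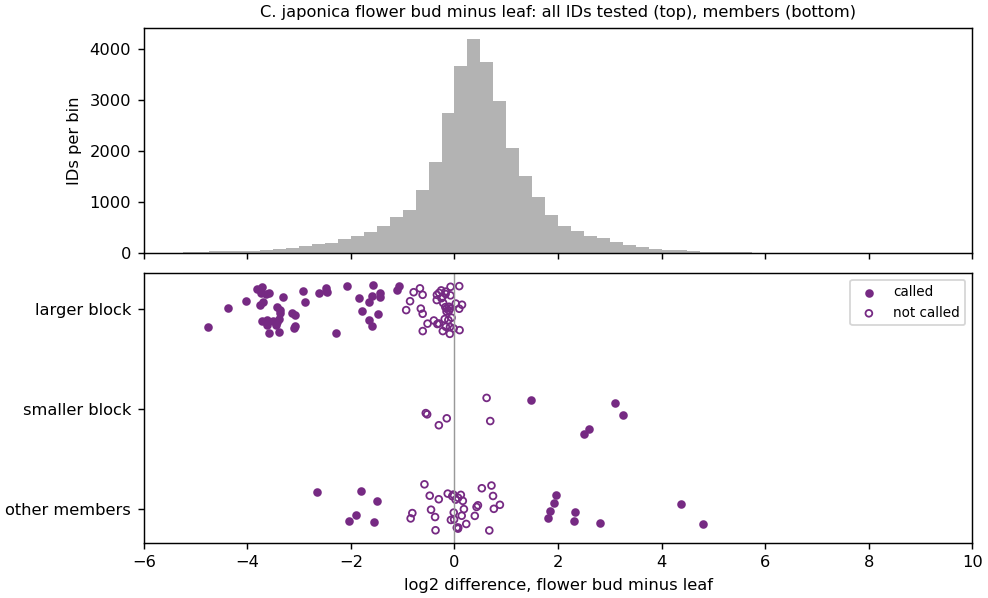
Log2 difference of C. japonica flower bud minus leaf for all 32406 IDs tested (top, counts per bin) and for each member tested (bottom, 1 point per ID, filled where called, with random vertical scatter). In the larger block the 47 called IDs lie between -4.76 and -1.08 and the 42 others between -0.93 and 0.15, while the median of all IDs is 0.41.

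The larger block was not uniform in this comparison. The division is that of the call with all 45 libraries in, and IDs on either side of its limit lie close together. The 47 IDs called lower had differences of -4.76 to -1.08 with a median of -3.14, and the median of their median levels was 3.10 TPM in buds against 58.1 TPM in leaves. The 42 IDs not called had differences of -0.93 to 0.15 with a median of -0.18, at 7.01 TPM in buds against 9.05 TPM in leaves. In C. azalea leaves the median of the mean r with the block was 0.868 for the 47 IDs and 0.862 for the 42. The 47 IDs were more abundant in C. azalea, with a median of 237 TPM against 26.6 TPM, although EVM0010849 was among the 42. That ID had 379 to 3643 TPM in buds (median 721) and 353 to 3875 TPM in leaves (median 836), so buds and leaves overlapped over nearly their whole range.

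Single members differed between the organs by large factors. EVM0035202, of the larger block, had 7.89 to 482 TPM in buds with a median of 20.04, against 18.3 to 5774 TPM in leaves with a median of 664, a difference in log2 units of -4.76 with an SE of 0.48 (limma adjusted p = 2.4e-10). EVM0016945, also of the larger block, had 7.12 to 496 TPM in buds with a median of 13.5, against 13.7 to 1375 TPM in leaves with a median of 461 (-4.38 ± 0.42 as log2 difference ± SE, here and for each ID named hereafter; limma adjusted p = 7.9e-11). The highest bud value of EVM0016945 was that of the library labelled FB-1 bud 1 and its lowest leaf value that of Feb leaf 1. The same 2 libraries held these places for EVM0035202. The other 8 buds had 7.89 to 84.2 TPM of EVM0035202 and the other 35 leaves 265 to 5774 TPM, and for EVM0016945 they had 7.12 to 23.9 TPM and 217 to 1375 TPM, so the organs did not overlap without these libraries.

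In the other direction, EVM0003860, outside both blocks, had 10.7 to 1434 TPM in buds with a median of 241, against 0 to 243 TPM in leaves with a median of 1.97 (4.80 ± 0.43, limma adjusted p = 2.1e-11). It had 10.7, 16.7 and 12.3 TPM in FB-1 buds, 241, 149 and 391 TPM in FB-2 and 908, 632 and 1434 TPM in FB-3. Its leaf values were high in Mar, with 171, 243 and 21.2 TPM. EVM0029687, also outside both blocks, had 4.59 to 302 TPM in buds with a median of 98.0, against 0 to 59.3 TPM in leaves with a median of 2.21 (4.37 ± 0.46, limma adjusted p = 7.0e-10). Without the libraries labelled FB-1 bud 1 and Feb leaf 1 it had 44.04 to 302 TPM in buds against 0 to 14.2 TPM in leaves, with no overlap. All of these calls held in each of the 54 alternatives run for them.

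The summed share of the larger block was also lower in buds by its median. It was 0.395% to 2.08% of TPM in the 9 buds, with a median of 0.789%, against 0.411% to 4.27% in the 36 leaves, with a median of 1.84%. Without FB-1 bud 1 the buds had 0.395% to 2.08%, and without Feb leaf 1 the leaves had 1.01% to 4.27%, so the ranges still overlapped. More IDs reached 1 TPM in buds, with a median of 27404 against 23574 in leaves, and the part of that difference in the members' values was not tested. Rescaling changed the balance of calls over all IDs: 7898 were higher and 3207 lower in the deposited TPM, and 4765 and 4830 after quantile normalization, where members had 14 higher and 66 lower.

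Winter leaves (Dec, Jan and Feb) were compared with summer leaves (Jun, Jul and Aug) in C. japonica, 9 libraries each within the fit of all 36. Of 147 members tested, 6 were higher in winter, beside 5.89% of all 29156 IDs, and 15 were lower, beside 2.75% of them. The larger block had 14 of 89 lower and none higher, with a median difference of -0.65 beside 0.25 over all IDs and 81 of 89 below 0. Its IDs deviated together within months in these leaves, so these are not 89 separate observations. The smaller block had 2 of 10 higher and none lower, and the 48 other members had 4 higher and 1 lower.

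These winter counts depended on single libraries. The smaller block had 5 IDs higher without Jan leaf 3, beside 7.71% of all IDs. It had 1 higher without any one of Jan leaf 1 and 2, Feb leaf 2, and Jun leaf 2 and 3. The same held without any one of Jul leaf 1 and 2, Aug leaf 1 and 2, and Dec leaf 2 and 3. In the settings with 1 higher, 4.64% to 6.23% of all IDs were higher. Without the library labelled Feb leaf 1 there were 8 members higher and 8 lower (5.52% each, beside 6.56% and 3.68% of all IDs), 7 of the lower ones in the larger block. Without Jan leaf 3 there were 11 higher (7.48%, beside 7.71%) and 17 lower (11.6%, beside 3.25%). Without all 3 doubtful libraries there were 16 higher (11.03%, beside 8.51%) and 9 lower (6.21%, beside 4.29%), so the share of higher members then lay above that of all IDs. The median difference of all members tested was -0.29 with all libraries, -0.15 without Feb leaf 1 and -0.12 without all 3. Over all IDs it was 0.25, 0.20 and 0.21. The count of lower members was also 8 without Jan leaf 1, 25 without Feb leaf 3, and 9 without any one of Jun leaf 2, Aug leaf 2, Aug leaf 3 and Dec leaf 2. Over all IDs the split was 1716 higher and 802 lower in the deposited TPM and 705 and 1443 with the median-of-ratios factors, which moved the median of all IDs to 0.00; members then had 4 higher (2.72%, beside 2.42%) and 31 lower (21.1%, beside 4.95%).

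EVM0015857, of the larger block, had 4.66 to 127 TPM in winter with a median of 48.3, against 54.3 to 269 TPM in summer with a median of 150 (-1.78 ± 0.43, limma adjusted p = 0.0023). EVM0004414, also of the larger block, had 7.22 to 184 TPM in winter with a median of 82.1, against 85.9 to 416 TPM in summer with a median of 211 (-1.74 ± 0.43, limma adjusted p = 0.0029). In both IDs 5 of 9 winter libraries lay below every summer library. EVM0023920, of the smaller block, had 0 to 70.9 TPM in winter with a median of 6.08, against 0.168 to 1.92 TPM in summer with a median of 0.819 (2.49 ± 0.63, limma adjusted p = 0.0039). Its winter libraries had 31.5, 67.8 and 0 TPM in Jan, 6.08, 70.9 and 35.9 TPM in Feb and 0.864, 2.49 and 3.42 TPM in Dec, the 0 being the library labelled Jan leaf 3. EVM0003860 had 0 to 82.5 TPM in winter with a median of 27.2, against 0.363 to 2.58 TPM in summer with a median of 1.40 (2.35 ± 0.59, limma adjusted p = 0.0032). All of these calls held in each of the 45 alternatives run for them.

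Spring leaves (Mar, Apr and May) were set against autumn leaves (Sep, Oct and Nov) in the same fit. Of 147 members tested, 8 were higher in spring, beside 4.11% of all IDs, and 4 were lower, beside 2% of them. The smaller block gave 5 of the 8, from 10 IDs tested, and the larger block gave all 4 of the lower ones, with a median of -0.49 beside -0.01 over all IDs. The 4 lower calls fell to 0 without Sep leaf 3 or without Nov leaf 2, beside 1.57% and 1.45% of all IDs. They fell to 1 without Mar leaf 2 (beside 1.56%) and were 7 without Sep leaf 1 (2.89%) or without Sep leaf 2 (1.45%). Without Nov leaf 1 the smaller block had 3 higher, beside 3.30% of all IDs. Without the 3 doubtful libraries 9 members were higher (6.21%, beside 5.27% of all IDs) and 7 lower (4.83%, beside 2.88%).

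EVM0028704, of the smaller block, had 5.87 to 957 TPM in spring with a median of 120, against 0.607 to 49.8 TPM in autumn with a median of 2.44 (3.94 ± 0.82, limma adjusted p = 0.0023). Its levels were 869, 957 and 245 TPM in Mar, 256, 120 and 6.17 TPM in Apr and 5.87, 8.70 and 47.3 TPM in May. EVM0006410, which was listed at 0 in many C. azalea libraries, had 157, 122 and 119 TPM in Mar, 144, 133 and 90.1 TPM in Apr and 73.6, 81.1 and 0 TPM in May. In autumn it had 49.4, 0 and 0 TPM in Sep, was listed at 0 in all 3 Oct libraries and had 0, 0 and 54.5 TPM in Nov (4.78 ± 1.19, limma adjusted p = 0.0097). It was at 0 in 12 of the 36 C. japonica leaf libraries, 7 of them in autumn and 1 in spring. EVM0039667 was listed at 0 in 33 of the 36 C. japonica leaf libraries and in 8 of the 9 buds.

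The lower calls were small. EVM0025944 had 5.38 to 14.97 TPM in spring with a median of 12.7, against 12.8 to 117 TPM in autumn with a median of 21.6 (-1.26 ± 0.38, limma adjusted p = 0.028). EVM0007400 had 1.41 to 3.16 TPM in spring with a median of 2.32, against 2.15 to 21.9 TPM in autumn with a median of 6.30 (-1.06 ± 0.30, limma adjusted p = 0.021). Both are of the larger block, and each lost its call in 4 of 45 alternatives, with an adjusted p of up to 0.078 and 0.060. Both lost it without Sep leaf 3 and without Nov leaf 2. EVM0025944 also lost it without Mar leaf 2 or May leaf 2, and EVM0007400 without Oct leaf 1 or with a pseudocount of 5.

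A month effect over the 12 months of C. japonica was called for 20 of 147 members, beside 17.5% of all IDs, which is a share near the background. It was called for 10 of 89 IDs of the larger block, 5 of 10 of the smaller and 5 of 48 others. EVM0028704 and EVM0003860 had the largest ranges of month means among the called members, 7.49 and 6.01 on the log2 scale, with Mar the highest month of both. Without Jul leaf 1 the count was 13 (8.90%, beside 13.9% of all IDs). Without the 3 doubtful libraries it was 34 (23.4%, beside 27.5%), with 19 in the larger block. With the median-of-ratios factors it was 27 (18.4%, beside 11.5%).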

How the data were processed

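The authors deposited TPM in 1 table per species, whose columns carry the codes found in the sample titles. Per the submitters' processing notes, HISAT2 2.1.0 and StringTie 1.3.6 were used; the build, the annotation and all settings: not given in the sources used here. Genes that share reads with near-identical copies could be split between them, and such IDs could not be listed without sequence. Replicate numbers come from the labels in C. azalea and only name libraries in C. japonica, where they follow the order of deposit.

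The members and lists were chosen with earlier results of these data known. No gene list by symbol could be matched to the IDs. Deviations, blocks and correlations were computed in Python 3.11.15 with pandas 2.3.3 and SciPy 1.17.1. C. japonica tests used limma 3.58.1 in R 4.3.3 with the trend option on log2(TPM + 1), over IDs that reached 1 TPM in 3 or more of the fitted libraries, two-sided tests and Benjamini-Hochberg adjustment over all IDs tested; for the month effect limma's F test was used, with a call at a range of month means of at least 1. Differences on this scale understate the change of low IDs. The procedure was tested on simulated data, but no error rate is reported here, so this gives no measure of the calls. Season and month tests used all 36 leaf libraries, and bud against leaf all 45 libraries with the mean of 3 bud means set against the mean of 12 month means. C. azalea values used by the choice were not tested. Named IDs were the 2 members with the largest within-month SD, the central ID of each block, per comparison the 2 called members with the largest difference in each direction whose higher group averaged 5 TPM or more (by month, the 2 largest ranges), and 2 IDs on each side of the limit.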

Additional observations from a re-analysis of the deposited data

Results flagged for a closer look

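Of 25 groups of 9 C. japonica libraries checked for a single library apart from the rest, 5 had one. The groups reuse the same libraries and pool months or bud labels, so no rate by chance is set beside this count. The measure is the gap to the nearest library divided by the range of the group. Single IDs were taken on the log2(TPM + 1) scale and summed shares as log2 of the percentage. A library counts as apart past Dixon's 95% critical value. In winter leaves, Feb leaf 1 stood below the others for EVM0015857 (ratio 0.508; 4.66 TPM against 26.6 to 127 TPM) and for EVM0004414 (0.570; 7.22 TPM against 47.5 to 184 TPM). In spring leaves, May leaf 3 was listed at 0 for EVM0006410 (0.851), against 73.6 to 157 TPM in the others. In flower buds, FB-1 bud 1 stood below the others for EVM0029687 (0.522; 4.59 TPM against 44.04 to 302 TPM) and above them for EVM0016945 (0.728; 496 TPM against 7.12 to 23.9 TPM). Over all IDs, Feb leaf 1 was most like a bud library and FB-1 bud 1 most like a leaf library.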

How the results depend on the processing

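The larger block kept its size, with 89 to 91 IDs under the 3 alternatives for the tree height and scaling. The rule returned 116 to 140 of the 150 members under its 7 other settings and 104 to 149 with single libraries left out. The bud against leaf counts stayed within 1.5 times in all 54 alternatives, with 11 to 17 members higher (7.43% to 11.5%) and 43 to 66 lower (29.1% to 44.6%). Of all IDs, 11.6% to 32.7% were higher and 6.56% to 14.9% lower in these alternatives. Members with the larger within-month SD in C. japonica numbered 82 to 105 (75.2% to 94.6% of those at 5 TPM, beside 59.3% to 81.1% of all IDs). The members' share exceeded that of all IDs by 1.58 percentage points with median-of-ratios scaling, the least of any setting run, and by 19.5 in the deposited TPM.

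In winter against summer, leaving out single libraries gave 4 to 11 members higher and 8 to 25 lower, and 0 to 1 and 7 to 23 in the larger block. With median-of-ratios scaling 31 members and 29 of the larger block were lower, and with no filter 9 of the block. Without Feb leaf 1 and FB-1 1 these were 8 and 7, with 1 of the block higher. Without Jan leaf 3, 11 members and 1 of the block were higher, and without all 3 libraries 16 and 5 were higher and 9 and 8 lower. In spring against autumn single libraries gave 0 to 7 lower, also in the block, beside 1.41% to 2.89% of all IDs. A pseudocount of 5 gave 1 in both (beside 0.792% of all IDs), and leaving out all 3 libraries gave 7 members (beside 2.88%). The month effect was called for 13 to 27 members (8.90% to 18.4%) and 4 to 17 of the block with single libraries out. Of all IDs, 13.9% to 23.5% were called in these settings. It was called for 5 of the block with no filter (beside 12.9% of all IDs) and 16 with median-of-ratios scaling (11.5%). Without the 3 libraries it was called for 19 of the block and 34 members (beside 27.5%). Median-of-ratios scaling turned the median of the members in Dec 3 to 0.72 and moved that of the block to 1.25. It moved the mean pairwise r of all IDs to 0.0154 in C. azalea and 0.0107 in C. japonica, and the IDs following the block to 409 and 78. Without Feb leaf 1 the r of the block with the number of IDs in C. japonica was -0.305. The cause of these changes was not tested. Leaving out the 3 doubtful libraries together, or 1 at a time for that correlation, and rescaling for the correlations and the followers, were chosen after seeing the data.

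No paired analysis was possible because the C. azalea values come from no test and the C. japonica columns carry no replicate number. In C. azalea, members' deviations in libraries of different months had a mean r of -0.0165 with the same replicate number and 0.0083 with different numbers. Depth is unknown, so differences among IDs near 1 TPM cannot be weighed by counting error.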
